A study of Mus musculus with 2 samples.

Results

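The antioxidant enzymes described here are 10 genes found by symbol in the deposited tables of mouse gastrocnemius, out of 55536 genes. They are Sod1, Sod2, Cat, Gpx1, Gpx3, Gpx4, Prdx3, Prdx5, Txn2 and Txnip, and their 45 annotated transcripts. This muscle, a large one in the calf with fast and slow fibres, came from female F1 mice of a cross between the B6 and Cast strains, named B6CASTF1/J in the labels and supplied by The Jackson Laboratory. The labels give an age of 18 to 20 months in the description and mark the age field as not collected. They define 1 group of biological replicates, 2 and 1, with 300 ng of total RNA and ERCC spike-ins, synthetic RNAs added in known amounts, in each stranded, ribosome-reduced library. The tissue samples have separate identifiers and a shared donor identifier that names the strain, so the spread between the libraries may not be that of separate animals. No treatment, mutant or younger group was analysed here, and the comparison the design allows is between the replicates.

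Muscle makes superoxide in its mitochondria and through membrane oxidases, and superoxide dismutases turn it into hydrogen peroxide. Catalase then splits the peroxide into water and oxygen. Glutathione peroxidases and peroxiredoxins reduce it to water, with electrons that glutathione and thioredoxin carry from NADPH. Sod2, Prdx3 and Txn2 work in mitochondria, Prdx5 in mitochondria, peroxisomes and cytosol, Cat mainly in peroxisomes, and Gpx3 is secreted. Txnip is not an enzyme: it is an arrestin-like protein that binds reduced thioredoxin and restrains glucose uptake, so 1 of the 10 goes against the collective name.

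Gpx1, Gpx3 and Gpx4 use selenocysteine, an amino acid that the codon TGA encodes in their messages although it normally ends translation. The coding sequence around this codon is shown because it marks the catalytic residue that these 3 members share. The sequences come from the GENCODE M21 transcripts (mm10), run 5′ to 3′ with 30 bases on each side, and have TGA in capitals. It is codon 47 of 201 in Gpx1-201, codon 73 of 226 in Gpx3-201 and codon 129 of 253 in Gpx4-201.
Gpx1: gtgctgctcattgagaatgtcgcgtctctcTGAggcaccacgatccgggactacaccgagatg
Gpx3: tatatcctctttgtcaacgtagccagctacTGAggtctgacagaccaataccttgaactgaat
Gpx4: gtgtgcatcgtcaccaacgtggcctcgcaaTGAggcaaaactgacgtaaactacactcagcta
Gpx1 and Gpx4 had the same base at 35 of the 63 positions, Gpx3 and Gpx4 at 29, and Gpx1 and Gpx3 at 27. Across the family, Gpx1 to Gpx4 each held 1 TGA within the reading frame, and the annotation marks a selenocysteine in each. Gpx5, Gpx6, Gpx7 and Gpx8 held none.

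Levels are given in TPM, a unit of relative transcript abundance that corrects for transcript length. They come from RSEM unless kallisto, the other quantifier in the deposited data, is named. The expected counts of genes summed to 43722892 in replicate 2 and 38654555 in replicate 1, and the members had 688 to 16446 counts in a library. All 10 were detected in both. All 8 fast fibre markers were present. Myh4, the fast myosin heavy chain that leads in this muscle, had 11446 TPM in replicate 2 and 14510 TPM in replicate 1. These markers cannot tell gastrocnemius from other fast muscles. The summed level of the 10 members was 1236 TPM in replicate 2 and 1333 TPM in replicate 1 (1285 ± 68.9 TPM, mean ± SD, n = 2), which made 0.271% and 0.286% of the TPM of nuclear protein-coding genes. The highest mean was 9.58 times the lowest.

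Gpx4, the peroxidase that reduces lipid peroxides in membranes, was the highest member, with 323.8 TPM in replicate 2 and 305.4 TPM in replicate 1 (315 ± 13.02 TPM). It stood at rank 147 of 21938 nuclear protein-coding genes. Over transcripts annotated as coding, RSEM put Gpx4 at 204.8 TPM in replicate 2 and 203.7 TPM in replicate 1, where Txnip had 204.3 TPM, so its lead in replicate 1 rests on noncoding transcripts with RSEM. With kallisto the coding level of Gpx4 was the highest in both libraries, at 351.0 and 362.1 TPM. After it by mean level came Txnip at 194 ± 61.0 TPM, Sod2 at 162 ± 29.8 TPM, Gpx3 at 140 ± 82.8 TPM and Sod1 at 140 ± 16.6 TPM. Prdx3 at 91.6 ± 11.01 TPM, Prdx5 at 82.6 ± 19.0 TPM, Txn2 at 82.2 ± 16.8 TPM, Cat at 45.1 ± 6.47 TPM and Gpx1 at 32.9 ± 4.62 TPM followed. Of the 9 neighbouring pairs in this order, 4 had ranges that did not overlap: Gpx4 above Txnip, Sod1 above Prdx3, Txn2 above Cat, and Cat above Gpx1. The order among Txnip, Sod2, Gpx3 and Sod1 lay within the spread of the libraries, as did that among Prdx3, Prdx5 and Txn2. Only neighbours were compared in this way. Gpx3, at 81.8 TPM in replicate 2, was below Prdx3 (99.4), Prdx5 (96.1) and Txn2 (94.1) in that library. Its place above these genes therefore also lay within the spread. With kallisto, Cat stood below Gpx1 in replicate 1, at 54.2 against 55.1 TPM, so the order of the lowest pair depends on the quantifier.

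**Figure D1:**
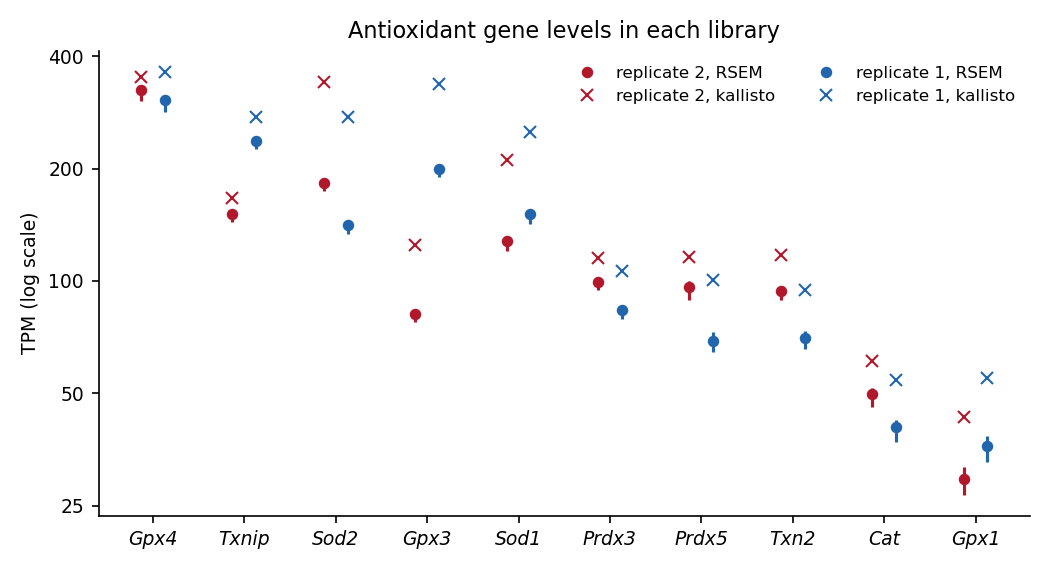
TPM (log scale) of each member in replicate 2 (red) and replicate 1 (blue), from RSEM (circles, with vertical lines for the tool's own interval) and kallisto (crosses), in order of mean RSEM level. Gpx4 is highest in both libraries over all transcripts, and Gpx3 has the widest gap between them, at 81.8 TPM in replicate 2 and 198.8 TPM in replicate 1.

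The libraries are compared by the log2 ratio of replicate 2 over replicate 1 after TMM scaling of counts, so a positive value is higher in replicate 2. TPM is not scaled in this way, so a gene counted as higher by this ratio can have a lower TPM in replicate 2. With 2 libraries of 1 group there is no test, and each fold has a 95% interval that covers counting error only. Gpx3 was the only member at least 2-fold apart, under TMM and under each other scaling, filter and quantifier tried, 1 of 10 against 4.64% of the 12969 genes whose counts summed to 50 or more. By direction, 0 members and 2.7% of genes were at least 2-fold higher in replicate 2. All 10 members were among those genes. Of the members, 6 were higher in replicate 2 and 4 lower, with a median log2 ratio of 0.30, while 49.8% of all genes were higher and their median was 0.00. Scaling to the spike-in totals moved the median of all genes by -0.22. It left 5 members above 0, with Gpx4 crossing, and gave a member median of 0.076.

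**Figure D2:**
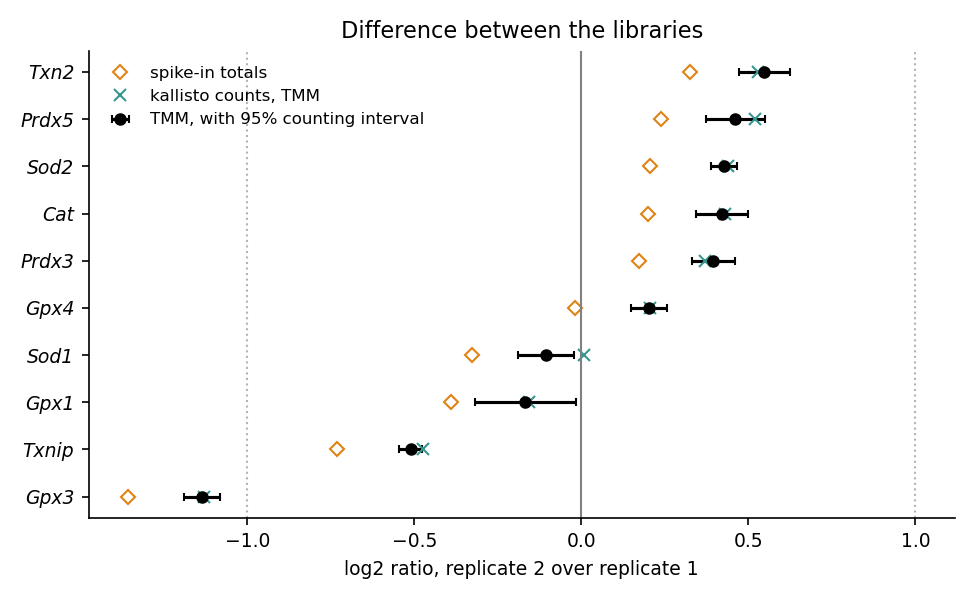
Log2 ratio of replicate 2 over replicate 1 for each member: TMM-scaled RSEM counts with 95% counting intervals (black circles), spike-in totals (open diamonds) and kallisto counts (crosses), with dotted lines at 2-fold. Txn2, Prdx5, Sod2, Cat and Prdx3 lie to the right of 0 under each of these, and Gpx3, Txnip and Gpx1 to the left.

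Sod2, the manganese superoxide dismutase of the mitochondrial matrix, lies on chromosome 17 (13006846 to 13040063, mm10). It had 183.0 TPM in replicate 2 and 141.0 TPM in replicate 1, a 1.34-fold ratio (1.31 to 1.38). Sod1, the copper and zinc enzyme of the cytosol (chromosome 16, 90220754 to 90226329), had 127.9 TPM in replicate 2 and 151.3 TPM in replicate 1. Its log2 ratio was -0.11 with RSEM, -0.33 with spike-in totals and 0.01 with kallisto, so its direction depends on the quantifier. Over all transcripts, Sod2 made 58.5% of the TPM of the 3 superoxide dismutases in replicate 2 and 47.9% in replicate 1. Over transcripts annotated as coding, Sod2 was below Sod1 in both libraries and with both tools. It had 42.9 TPM in replicate 2 and 36.7 TPM in replicate 1, beside 127.5 and 150.6 TPM for Sod1, and with kallisto 110.5 and 101.4 TPM beside 208.8 and 248.0 TPM. In the kallisto level of Sod2, Sod2-201, which encodes the enzyme, held 55.8 TPM in replicate 2 and 50.9 TPM in replicate 1. Sod2-205, a coding transcript of 50 codons with 0 TPM in RSEM, held 54.6 and 50.4 TPM. Sod3, the extracellular enzyme, was at 2.16 TPM in replicate 2 and 2.00 TPM in replicate 1.

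Cat, catalase (chromosome 2, 103453849 to 103485160), had 49.7 TPM in replicate 2 and 40.6 TPM in replicate 1, a 1.34-fold ratio (1.27 to 1.41). Pex genes, which build the peroxisomes where catalase acts, were higher in replicate 2 for 12 of 14, with a median log2 ratio of 0.18, but for only 5 of 14 with spike-in totals. Pex19, a receptor for peroxisomal membrane proteins and the most abundant of them, was at 33.3 TPM in replicate 2 and 28.9 TPM in replicate 1. Red blood cells are rich in catalase, Gpx1 and Prdx2. The 7 erythrocyte markers found summed to 407.5 TPM in replicate 2 and 415.2 TPM in replicate 1, led by the globin Hbb-bs at 138.9 and 152.9 TPM, and their part in the levels of those enzymes was not tested.

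Gpx3, the secreted peroxidase also found in plasma (chromosome 11, 54902453 to 54910377), had 81.8 TPM in replicate 2 and 198.8 TPM in replicate 1. These rest on 3999 and 8603 counts. It was 2.20-fold lower in replicate 2 (2.12 to 2.28), and its log2 ratio was -1.13 with TMM, -1.36 with spike-in totals and -1.13 with kallisto. Gpx3 was thereby among the 1.94% of genes at least 2-fold lower in replicate 2. Kallisto put it at 125.1 TPM in replicate 2 and 336.5 TPM in replicate 1. In these bulk samples fewer cells of a type and less RNA per cell cannot be told apart.

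Marker genes of non-muscle cells were checked beside Gpx3. Of 8 endothelial markers, 7 were lower in replicate 2, with a median log2 ratio of -0.65 and a sum of 55.3 TPM in replicate 2 against 77.7 TPM in replicate 1. Adipocyte markers summed to 130.9 and 113.1 TPM, and all 7 tested were higher in replicate 2, though 6 of 7 with spike-in totals. Fibro-adipogenic markers, those of connective tissue progenitors, summed to 476.5 TPM in replicate 2 and 445.9 TPM in replicate 1. The collagens Col3a1, Col1a1 and Col1a2 among them were 3.67-fold, 3.25-fold and 2.58-fold higher in replicate 2, and Lum 2.03-fold. The other 4 were nearer, from Dcn at a fold of 0.88 to Smoc2 at 1.19, and 7 of 8 were higher in replicate 2 with TMM but 5 of 8 with spike-in totals. Macrophage markers summed to 31.1 TPM in replicate 2 and 35.8 TPM in replicate 1, while 5 of 8 were higher in replicate 2, with a median log2 ratio of 0.12, or 4 of 8 with spike-in totals. The part of these cells in the Gpx3 difference was not tested.

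Gpx4 differed little between the libraries, with a 1.15-fold ratio (1.11 to 1.20) under TMM, and a log2 ratio that was 0.20 with TMM and -0.02 with spike-in totals. Gpx1, the cytosolic and mitochondrial peroxidase of soluble peroxides (chromosome 9, 108338903 to 108340343), was the lowest member, with 29.6 TPM in replicate 2 and 36.1 TPM in replicate 1. Its interval of 1.01-fold to 1.25-fold lower in replicate 2 with TMM came close to no difference. The log2 ratio of Gpx1 was -0.17 with TMM, -0.39 with spike-in totals and -0.31 with total counts. Within the 8 glutathione peroxidases, Gpx4 made 73.6% of the TPM in replicate 2 and 56.0% in replicate 1, and Gpx3 made 18.6% and 36.5%. Gpx1 took 6.72% in replicate 2 and 6.62% in replicate 1. Gpx7 and Gpx8, enzymes of the endoplasmic reticulum, had 3.03 and 1.84 TPM in replicate 2 and 3.50 and 1.54 TPM in replicate 1. Gpx2, Gpx5 and Gpx6 had 0 counts in both libraries with RSEM, which allows up to 3 counts in each.

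Of 12 other selenoproteins tested, none was at least 2-fold apart. With TMM 6 were higher and 6 lower in replicate 2, with a median log2 ratio of 0.00, and 2 were higher with spike-in totals. Selenow, a small selenoprotein abundant in muscle, had 804.5 TPM in replicate 2 and 776.0 TPM in replicate 1. Selenop, which carries selenium in plasma and like Gpx3 is secreted, had 59.1 TPM in both libraries. Msrb1, a methionine sulfoxide reductase, was at 78.2 and 71.5 TPM, and Selenov had 0 counts in both with RSEM but 0.33 and 1.24 TPM with kallisto. Of 7 genes for making selenoproteins, 4 were higher in replicate 2. The highest of these were Pstk, a kinase on the path to selenocysteine, at 19.1 TPM in replicate 2 and 15.0 TPM in replicate 1, and the selenophosphate synthetase Sephs2 at 15.2 and 18.2 TPM.

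Prdx3, the peroxiredoxin of the mitochondrial matrix (chromosome 19, 60864051 to 60874556), had 99.4 TPM in replicate 2 and 83.8 TPM in replicate 1, a 1.32-fold ratio (1.26 to 1.38). Prdx5, which also reduces peroxynitrite (chromosome 19, 6906697 to 6910106), had 96.1 TPM in replicate 2 and 69.2 TPM in replicate 1, a 1.38-fold ratio (1.29 to 1.46). Both intervals lay above a fold of 1. The most abundant of the 6 peroxiredoxins with RSEM was the cytosolic Prdx1, at 116.9 TPM in replicate 2 and 122.2 TPM in replicate 1. Prdx2, another cytosolic form, had 84.5 and 62.9 TPM. With kallisto Prdx2 led in replicate 2, at 181.0 TPM beside 167.6 TPM for Prdx1, and Prdx1 led in replicate 1, at 197.3 beside 148.2 TPM. Prdx6, which also acts on phospholipids, had 57.3 and 50.5 TPM. Prdx4 of the endoplasmic reticulum had 2.74 and 2.67 TPM. All 6 had log2 ratios above 0 with TMM (0.01 to 0.49), while Prdx1 (-0.21) and Prdx4 (-0.04) were below 0 with spike-in totals. Prdx3 made 21.8% of the peroxiredoxin TPM in replicate 2 and 21.4% in replicate 1, and Prdx5 made 21.03% and 17.68%, so no single gene dominated this family.

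Txn2, the mitochondrial thioredoxin that reduces Prdx3 and Prdx5 (chromosome 15, 77915047 to 77929006), had 94.1 TPM in replicate 2 and 70.4 TPM in replicate 1. Its ratio of 1.46-fold (1.39 to 1.54) was the highest of the members under TMM and under spike-in totals. Txn1, the cytosolic thioredoxin, had 31.3 TPM in replicate 2 and 35.9 TPM in replicate 1. Txn2 therefore made 75.0% of the thioredoxin TPM in replicate 2 and 66.2% in replicate 1. Of 10 genes that recycle thioredoxin or peroxiredoxins, 4 were higher in replicate 2, or 2 with spike-in totals, and none was at least 2-fold apart. Txnl1, a thioredoxin-like protein of the proteasome, was at 46.4 and 69.9 TPM, and Txnrd1, the cytosolic thioredoxin reductase, at 23.0 and 29.4 TPM. Its mitochondrial counterpart Txnrd2, named here after its values were seen, was at 8.69 TPM in replicate 2 and 9.0 TPM in replicate 1.

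**Figure D3:**
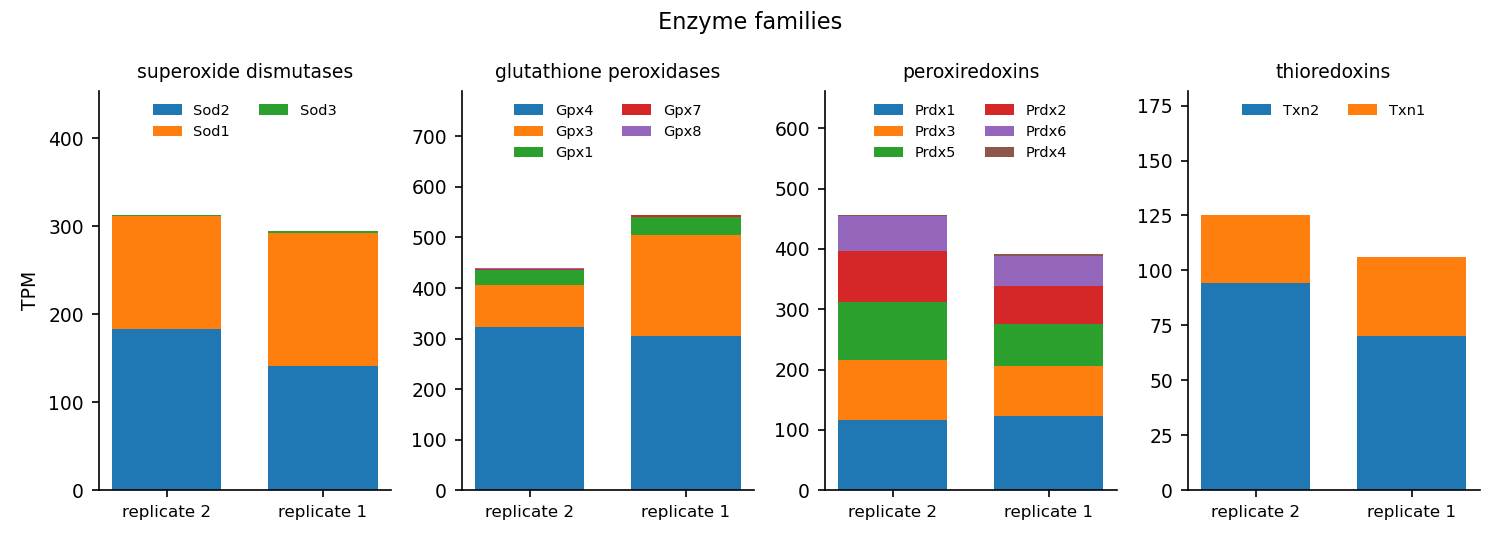
Summed TPM of each enzyme family in replicate 2 (left bar) and replicate 1 (right bar), split by gene, leaving out genes whose mean is under 1 TPM. Gpx4 and Gpx3 fill most of the glutathione peroxidase bars, and Gpx3 is smaller in replicate 2 (81.8 TPM, against 198.8 TPM in replicate 1). The peroxiredoxin bars hold 6 genes, of which Prdx4 is the smallest (2.74 TPM in replicate 2 and 2.67 TPM in replicate 1).

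Sod2, Prdx3, Prdx5 and Txn2, the members described above as mainly or partly mitochondrial apart from Gpx1 and Gpx4, had log2 ratios of 0.39 to 0.55 with TMM and 0.17 to 0.33 with spike-in totals. Ratios of this size were not limited to them, since Cat (0.42) and the cytosolic Prdx2 (0.49) had like values with TMM, and Gpx1 and Gpx4, which also have mitochondrial forms, had -0.17 and 0.20. All 25 nuclear genes of oxidative phosphorylation on the list were higher in replicate 2 too, with log2 ratios of 0.39 to 0.79 and a median of 0.52, or 0.30 with spike-in totals. Atp5b, a catalytic subunit of the ATP synthase, had 1482 TPM in replicate 2 and 1172 TPM in replicate 1. Beside this stood the markers of slow, oxidative fibres: all 8 were at least 2-fold higher in replicate 2, with a median log2 ratio of 2.60, and summed to 3099 TPM in replicate 2 against 634.9 TPM in replicate 1. Myh7, the slow myosin heavy chain, was at 408.7 and 65.8 TPM. The fast fibre markers had a median log2 ratio of 0.01, or -0.21 with spike-in totals. The part of the slow fibre content in the ratios of Sod2, Prdx3, Prdx5 and Txn2 was not tested.

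Idh2, the mitochondrial enzyme that makes NADPH from isocitrate, was the only gene of the NADPH list at least 2-fold apart. It had 138.8 TPM in replicate 2 and 65.1 TPM in replicate 1, a 2.39-fold ratio (2.29 to 2.49). The other 10 genes of that list were not, and the cytosolic Me1 stood at 82.7 and 97.7 TPM. Of 17 genes of glutathione synthesis and use, 11 were higher in replicate 2, or 8 with spike-in totals, with a median log2 ratio of 0.07. Gstp1, a glutathione transferase, led them at 210.1 TPM in replicate 2 and 233.2 TPM in replicate 1, ahead of Gstm1 at 100.3 and 105.8 TPM.

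NRF2, encoded by Nfe2l2, is the transcription factor that induces many antioxidant genes. Of 11 tested regulators and targets of NRF2, 1 was higher in replicate 2 with TMM, none with spike-in totals and 2 of those with a kallisto ratio. The 1 with TMM was Keap1, the inhibitor of NRF2, whose fold of 1.03 (0.97 to 1.09) includes no difference. Its TPM was 22.5 in replicate 2 and 23.7 in replicate 1. The median log2 ratio of the 11 was -0.20, and none was at least 2-fold apart. Nfe2l2 had 15.0 TPM in replicate 2 and 21.1 TPM in replicate 1. Srxn1, which repairs overoxidised peroxiredoxins, had 8.58 and 14.95 TPM, the lowest log2 ratio on the list at -0.56. Both genes were named after their values were seen. Among 10 tested sources of superoxide and hydrogen peroxide, 5 were higher in replicate 2 and none was at least 2-fold apart. Rac1, a small GTPase that activates oxidases, led with 98.7 TPM in replicate 2 and 104.3 TPM in replicate 1. Ccs, the chaperone that loads copper into Sod1, had 10.6 TPM in replicate 2 and 11.2 TPM in replicate 1.

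**Figure D4:**
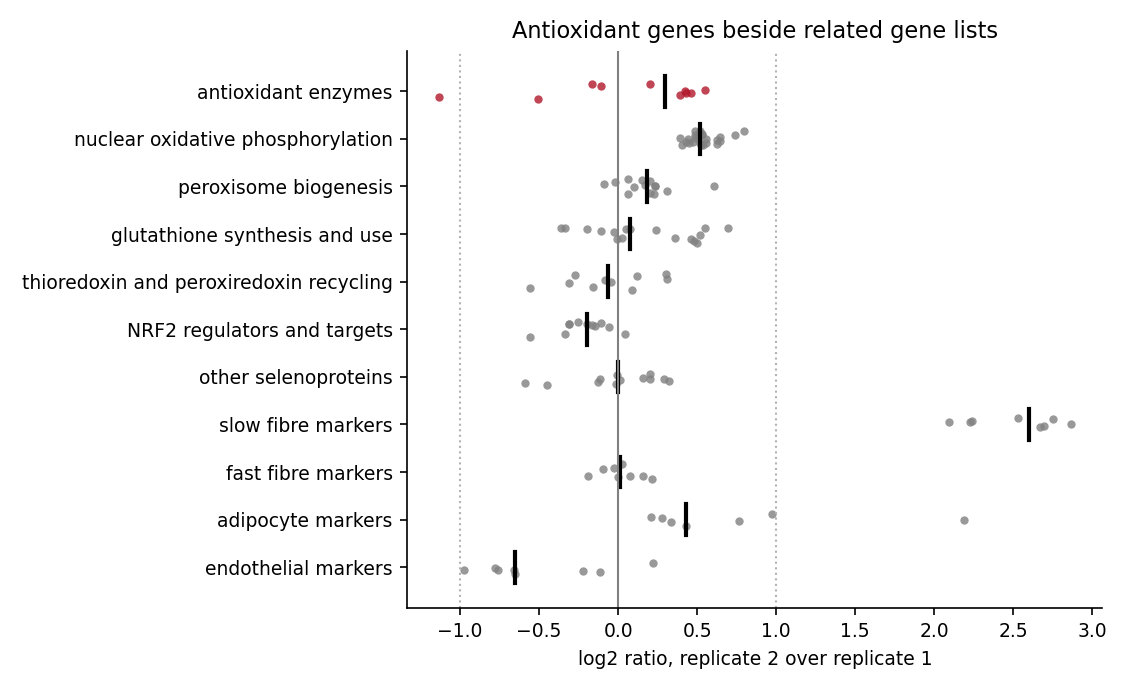
Log2 ratio of replicate 2 over replicate 1 for each tested gene of the antioxidant members (red) and of related lists and cell type markers (grey), with medians as black bars and dotted lines at 2-fold. The members spread from -1.13 to 0.55, the oxidative phosphorylation genes lie together at 0.39 to 0.79, and the slow fibre markers all lie beyond 2.

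Txnip (chromosome 3, 96557957 to 96561883) had 150.7 TPM in replicate 2 and 237.0 TPM in replicate 1, from 11787 and 16446 counts. It was 1.42-fold lower in replicate 2 (1.39 to 1.46), with a log2 ratio of -0.51 under TMM and -0.73 with spike-in totals. Among its relatives, the alpha-arrestins, Arrdc4 was also lower in replicate 2, at 1.44 TPM against 2.84 TPM, a fold of 0.65 (0.53 to 0.80). Arrdc2 was 3.24-fold higher (3.06 to 3.43), at 88.3 TPM in replicate 2 and 30.7 TPM in replicate 1, and Arrdc3 was 1.78-fold higher (1.71 to 1.86), at 64.3 and 38.6 TPM. Txnip made 49.3% of the TPM of the 6 alpha-arrestins in replicate 2 and 76.2% in replicate 1, while the summed level was 306.0 and 310.9 TPM. Arrdc1 had 1.19 TPM in replicate 2 and 1.80 TPM in replicate 1, with an interval that includes no difference (0.53 to 1.11), and Arrdc5 had 2 counts and 0 counts. Of the 5 alpha-arrestins tested, 3 were lower and 2 higher in replicate 2 under TMM and under spike-in totals.

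Txnip and Arrdc4 are known targets of the glucose-sensing factors MondoA (Mlxip) and ChREBP (Mlxipl). Mlxip was at 27.7 TPM in replicate 2 and 29.4 TPM in replicate 1, and Mlxipl at 28.1 and 27.5 TPM. With TMM, Mlxip had a fold of 1.05 (1.02 to 1.09) and Mlxipl of 1.26 (1.19 to 1.34). Their log2 ratios with spike-in totals were -0.15 and 0.11. Foxo1, a transcription factor active in fasting, was the only one of 8 Txnip regulators at least 2-fold apart, at 15.8 TPM in replicate 2 and 6.68 TPM in replicate 1 (2.62-fold, 2.48 to 2.78). Of 9 genes of the glucose and fasting response, 8 were higher in replicate 2 (6 with spike-in totals), 5 of them at least 2-fold, with Arrdc4 the exception. Pdk4, which restrains pyruvate use in fasting, had 574.6 TPM in replicate 2 and 171.7 TPM in replicate 1. Ddit4, an inhibitor of mTOR signalling induced by stress and glucocorticoids, had 88.6 and 6.40 TPM, a 15.4-fold ratio (13.7 to 17.3). Slc2a4, the insulin-responsive glucose transporter, was at 192.4 TPM in replicate 2 and 197.7 TPM in replicate 1. The feeding state and time of collection of the mice were not given in the sources used here, and their part in the Txnip ratio was not tested.

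Promoters were taken from the RefSeq table of GRCm38.p6, from 250 bases before the annotated start to 50 after it, for all 10 members, with 4 start sites for Gpx4. That of Gpx3 is printed because it had the largest difference between the libraries. That of Txnip is printed for a motif searched after the data were seen. Both run 5′ to 3′ on the plus strand. Capitals in Gpx3 (chr11:54902604-54902903) mark a GC box, GGGCGG, 49 bases before the RefSeq start. In GENCODE M21 Gpx3-201 starts earlier, at 54902772, so the box lies after the start of that transcript. Capitals in Txnip (chr3:96557707-96558006) mark a match to the carbohydrate response element, a pair of CACGNG blocks with 5 bases between them, 85 bases before the RefSeq start.
Gpx3: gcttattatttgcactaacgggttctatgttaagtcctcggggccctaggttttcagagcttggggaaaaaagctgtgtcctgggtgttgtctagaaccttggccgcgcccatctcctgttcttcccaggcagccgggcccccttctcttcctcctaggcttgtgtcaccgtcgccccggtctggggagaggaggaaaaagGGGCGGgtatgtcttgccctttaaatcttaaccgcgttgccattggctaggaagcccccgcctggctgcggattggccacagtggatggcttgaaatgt
Txnip: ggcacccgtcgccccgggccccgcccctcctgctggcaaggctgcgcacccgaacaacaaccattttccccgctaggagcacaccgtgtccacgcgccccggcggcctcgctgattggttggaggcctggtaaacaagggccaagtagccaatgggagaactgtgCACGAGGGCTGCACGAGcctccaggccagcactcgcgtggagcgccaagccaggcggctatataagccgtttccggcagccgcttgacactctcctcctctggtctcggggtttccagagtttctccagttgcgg
Motifs were searched on both strands. The carbohydrate element was found in 16 of 32851 promoters (0.0487%) and, among the members, in Txnip alone. The GC box was found for all 10 members, though not at 1 of the Gpx4 start sites, and 35.7% of all promoters hold it. The core of the antioxidant response element, TGACNNNGC, was found in Sod1, 56 bases before the start, and in 12.4% of all promoters. TATAAA was found in Sod1 and Prdx3 and in 13.6% of all promoters, and the E box CACGTG in no member and 7.15% of all promoters. The Gpx3 promoter had 56.3% G and C with 13 CpG sites, and that of Txnip 65.3% with 24, beside medians of 52.7% and 7 over all promoters. A match is a description of these letters only.

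Transcript shares were steady between the libraries for most members and differed between the quantifiers for some. The same transcript led in both libraries and with both tools for 7 of 10 members, the exceptions being Gpx1, Gpx4 and Prdx5. Prdx3 has a single annotated transcript. Sod1-201 made 99.7% of the Sod1 TPM in replicate 2 and 99.5% in replicate 1, and Txn2-201 made 87.9% and 88.7% of that of Txn2. Gpx3-201 made 99.7% in replicate 2 and 99.9% in replicate 1 with RSEM, and 81.7% and 77.2% with kallisto. Gpx3-201 was lower in replicate 2 with both tools, at 81.5 TPM in replicate 2 and 198.7 TPM in replicate 1 with RSEM and 102.2 and 259.8 TPM with kallisto. Kallisto also placed Gpx3-202, listed at 0 by RSEM, at 21.8 TPM in replicate 2 and 75.6 TPM in replicate 1.

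Sod2 TPM lay mostly in transcripts annotated as noncoding. Sod2-207, a processed transcript of 1138 bases, made 51.8% in replicate 2 and 52.7% in replicate 1, and Sod2-204, a retained intron of 644 bases, made 22.9% and 20.0%. Sod2-201, which encodes the enzyme of 222 codons, is 5861 bases long and made 23.4% in replicate 2 and 26.0% in replicate 1. Transcripts annotated as noncoding took 76.6% and 74.0% of the Sod2 TPM but 34.3% and 31.9% of its expected counts, and with kallisto 67.7% and 63.2% of the TPM. The level of the Sod2 gene and its share of the family given above include these noncoding transcripts.

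Gpx4 is known to make mitochondrial, cytosolic and nuclear forms from alternative starts, and its transcripts could not be assigned steadily. RSEM gave Gpx4-202 (197 codons) 40.4% in replicate 2 and 38.9% in replicate 1, and Gpx4-201 (253 codons) under 1% in both. Gpx4-207 (157 codons) took 22.0% in replicate 2 and 27.2% in replicate 1 with RSEM. With kallisto it took under 1% in replicate 2 and 7.82% in replicate 1. Gpx4-203, a retained intron of 280 bases, took 36.7% and 33.2% with RSEM and 0 TPM with kallisto. With kallisto Gpx4-202 was at 240.9 TPM in replicate 2 and 3.41 TPM in replicate 1, and Gpx4-201 at 110.0 and 330.3 TPM, so the leading transcript changed between the libraries. The summed Gpx4 level was 351.3 and 362.8 TPM with kallisto, so the gene total did not follow that change. Of the distinct 31-base words in Gpx4 transcripts, 38.9% also occur in other genes, 684 of them in the pseudogene Gpx4-ps2 on the same chromosome. RSEM listed Gpx4-ps2 at 25.9 TPM in replicate 2 and 28.5 TPM in replicate 1, and kallisto at 1.42 and 0.45 TPM. The split of reads between the gene and this copy is therefore uncertain.

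For Gpx1, RSEM gave Gpx1-204 (145 codons) 62.6% in replicate 2 and 58.8% in replicate 1, while kallisto gave most to Gpx1-201 (201 codons), 55.3% and 61.6%. Prdx5-201 (210 codons) and Prdx5-205 (142 codons) made 38.9% and 47.3% in replicate 2 and 49.8% and 44.7% in replicate 1 with RSEM, and Prdx5-204 was at 13.1 TPM in replicate 2 and listed at 0 in replicate 1. Kallisto instead split Prdx5 between Prdx5-201 and Prdx5-203. Cat-201, the full coding transcript of 527 codons, made 68.3% of Cat in replicate 2 and 69.9% in replicate 1, and 71.4% and 70.9% with kallisto. Txnip-202 and Txnip-201, whose reading frames of 397 and 396 codons differ by 1 codon, made 50.2% and 35.6% in replicate 2 and 50.2% and 36.1% in replicate 1. Both were lower in replicate 2, at 75.7 and 53.6 TPM against 118.9 and 85.5 TPM in replicate 1. Because their shares hardly differed between the libraries, this restates the gene level and is not separate evidence.

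**Figure D5:**
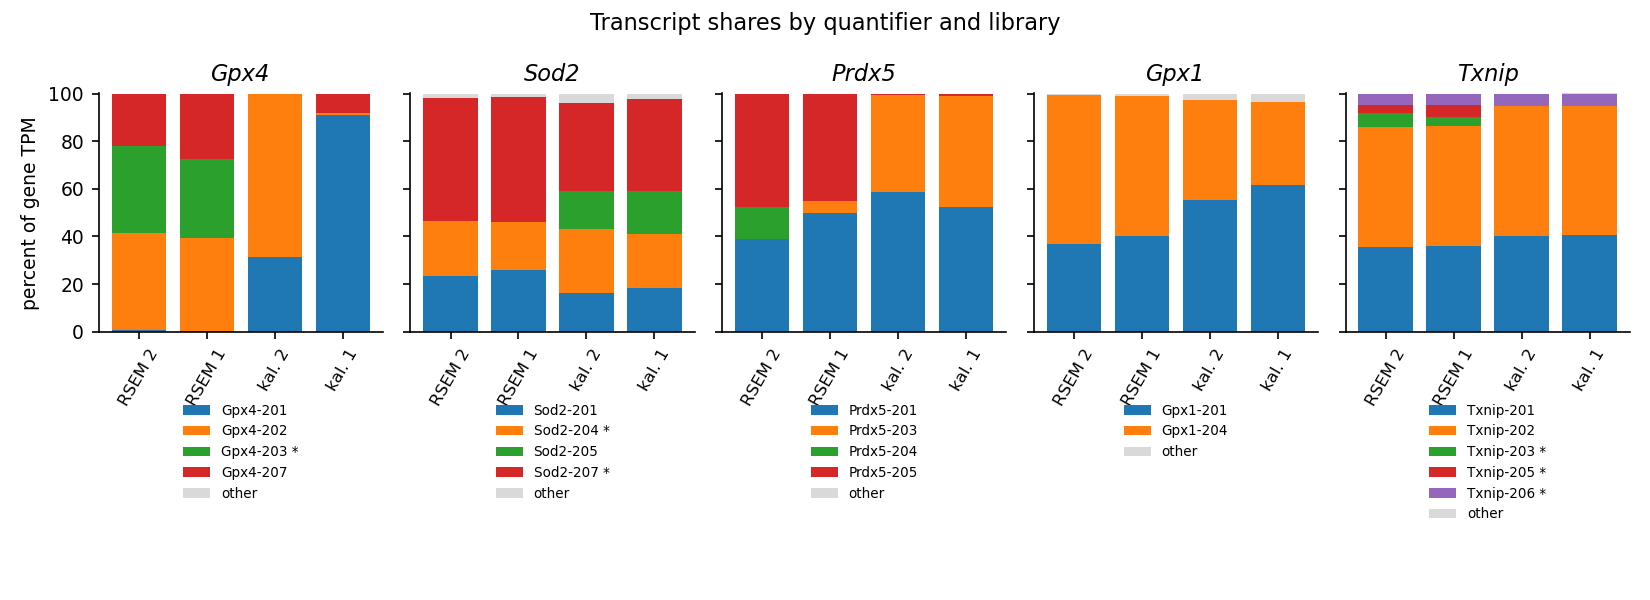
Transcript shares, as a percent of gene TPM, for 5 members, from RSEM and kallisto (kal.), replicate 2 before replicate 1 for each tool. An asterisk marks transcripts annotated as noncoding or retained intron. Gpx4-201 and Gpx4-202 exchange places between the kallisto libraries, while the shares of Sod2 and Txnip differ little between replicates.

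Shared sequence also touches the dismutases. Of the 31-base words of Sod2, 26.6% occur elsewhere, with 2199 in the lincRNA AC166110.4 and 2001 in Rps6ka2, both elsewhere on chromosome 17. Of those of Sod1, 5.41% occur elsewhere, most in the pseudogene Gm8566 on chromosome 6. Exons of Prdx5 and Txnip overlap genes on the opposite strand, Trmt112 over 409 bases (19.2 TPM in replicate 2 and 26.2 TPM in replicate 1) and the antisense Gm15441 over 606 bases (0.38 and 0.33 TPM). No source used here states whether strand was used in counting. RSEM's posterior SD of the count, a measure of uncertain assignment, was 10.2 counts for Sod2 in replicate 2 and 8.27 in replicate 1, and under 1 count for Sod1. It was 56.1 and 49.9 counts for Gpx4 and 0 for the other 7 members. Prdx5 and Txnip were among these 7 and had whole counts, so RSEM split none of their reads with another gene. Whether kallisto did so was not checked. Kallisto levels were above those of RSEM for every member, by 1.09-fold to 1.95-fold, beside a median of 1.30-fold in replicate 2 and 1.38-fold in replicate 1 over nuclear protein-coding genes. The ratio was highest for Sod2, at 1.87-fold in replicate 2 and 1.95-fold in replicate 1.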

How the data were processed

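Total RNA-seq of 2 gastrocnemius libraries was used. The genome build (mm10) and the gene annotation (GENCODE M21) are as stated in the notes that the authors deposited. No source used here gives the aligner or tool versions. Expected counts and TPM of genes and transcripts were deposited as RSEM output, per the file headers. Estimated counts and TPM per transcript were deposited as kallisto output, per the file headers, and were summed per gene here. Other deposited columns held FPKM, the percent of gene TPM per transcript and further RSEM values. FPKM and the deposited percent were not used, and transcript shares were computed from TPM. RSEM's posterior mean TPM served as an alternative, and its posterior SD of the count and interval bounds are given as deposited.

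Genes were matched by identifier, and of several genes with 1 symbol the gene of highest mean TPM was taken. Spike-in, tRNA and phiX rows stayed out of gene totals. Expected counts were rounded, and edgeR 4.0.16 (R 4.3.3) gave log2 CPM with TMM scaling and a prior count of 2, for genes whose counts summed to 50 or more. Each fold has an exact conditional binomial interval at 95%. It covers counting error alone, and leaves out variation between samples and library preparations. Reads lack molecular identifiers and may repeat a molecule, so it may be too narrow even for counting error. No test was made, as 1 group of 2 libraries allows none. Only the log2 ratio with TMM scaling was tested on simulated data with known folds. Alternatives were DESeq2 1.42.0 size factors, spike-in totals, total counts, kallisto, other count filters and prior counts, posterior mean TPM, and leaving out each library.

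The members and gene lists were chosen with earlier results of these data known. The text names all members, all genes of their families, the 3 genes of highest mean TPM in each list, list genes at least 2-fold apart with a mean of at least 5 TPM, and transcripts with at least 5% of a member's TPM, and not every gene so picked is discussed. Genes named outside this rule are marked in the text.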

Additional observations from a re-analysis of the deposited data

How the results depend on the processing

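With 2 libraries of 1 group no value has a test, and leaving out a library leaves no ratio. No paired analysis was possible because there is only 1 group. The summed member level was 1285 TPM with RSEM and 1779 TPM with kallisto. With RSEM it was 1236 and 1333 TPM when either library was left out. Kallisto TPM were higher for most genes. As a percent of nuclear protein-coding TPM, the members made 0.278% with RSEM and 0.262% with kallisto. The median member log2 ratio of 0.30 was 0.076 with spike-in totals and 0.15 with total counts. The number of genes at least 2-fold apart was 602 as reported, 2712 with no count filter and 194 with a summed count of at least 500. Gpx3 was the only member at least 2-fold apart under each of these settings. Of 70 alternative member ratios, 68 kept their sign, the exceptions being Gpx4 with spike-in totals (-0.02) and Sod1 with kallisto (0.01). Within the counting interval lay 49 of the 70, and this depended on the scaling. With spike-in totals 0 of the 10 members lay within it, with total counts 1 and with kallisto 8. Under each other setting all 10 did. Spike-in totals and total counts shift the log2 ratios of all genes by nearly the same amount. The median of all genes became -0.22 with spike-in totals and -0.15 with total counts. For kallisto the cause was not tested. Depth limits few member values, since the lowest member count was 688.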
